A study of Danio rerio with 6 samples.

Results

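The 6 genes hcn4, hcn2b, hcn4l, cacna1g, isl1 and shox2 of the pacemaker program were followed in atrial cardiomyocytes (CMs) of the zebrafish heart. They were chosen by symbol, for their roles, from a table of 23000 genes. All 6 symbols occurred once in the table, and 5 of the 6 passed the filter on low counts, as did 16100 of the 23000 genes. Atrial CMs were taken at 72 hours post fertilization (hpf) in 3 libraries and at 48 hpf in 3 libraries, with the genotype labelled wild-type at both stages. By the study's methods all fish carried myh6:mTagBFP2 for atrial CMs, myh7:mCherry-NTR for ventricular CMs and the Wnt/β-catenin reporter 7XTCF-Sia:eGFP, and each replicate pooled cells of many dissected hearts. Cells with strong mTagBFP2 and little or no mCherry were kept, and eGFP-positive cells were sorted out to remove CMs of the atrioventricular canal and the sinoatrial node (SAN). The libraries therefore describe a gate meant to leave out the pacemaker region itself. Replicates 1 and 2 combined cells from a BD FACSAria and a BigFoot sorter, and replicate 3 came from the BigFoot alone.

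The heartbeat starts in the SAN, at the inflow end of the atrium, where CMs depolarize on their own. Hyperpolarization-activated (Hcn) channels open after each beat and carry the inward funny current, and their opening is eased by cAMP. T-type calcium channels such as the one encoded by cacna1g open at slightly higher voltages and bring the cell closer to threshold. The transcription factors Isl1 and Shox2 belong to the SAN program in fish and mammals, and in mammals Shox2 holds back the working-myocardium factor Nkx2.5 in the node. In the mammalian heart Hcn4 is the main Hcn channel of the adult node and is also found in the early heart tube, outside the node.

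Library totals were 3577234 to 4541886 counts at 72 hpf and 3694451 to 5629941 counts at 48 hpf. Levels are given in CPM, counts per 1000000 counts of the library, and 3 counts, the floor used here, made 0.661 to 0.839 CPM at 72 hpf and 0.533 to 0.812 CPM at 48 hpf. Molecular identifiers were not used, so floors and intervals of counts cover counting error only. The 5 atrial markers, led by myh6, summed to 3060 to 3619 CPM at 72 hpf and 2488 to 3582 CPM at 48 hpf. The 5 ventricular markers in the table summed to 565 to 825 CPM at 72 hpf and 1013 to 1675 CPM at 48 hpf, with irx4a at 0 counts in all 6 libraries and the gated reporter's gene myh7 at 2359 to 3115 counts at 72 hpf and 4851 to 5228 counts at 48 hpf. The 10 leukocyte markers summed to 7.71 to 105 CPM at 72 hpf and 351 to 734 CPM at 48 hpf. The 10 endothelial markers summed to 86.9 to 334 CPM at 72 hpf and 133 to 402 CPM at 48 hpf, and of these fli1a, tie1 and kdr had 0 counts in all 72 hpf libraries while kdrl had 73 to 1044 and nfatc1 209 to 309. Atrial markers were thus read in every library, and leukocyte and ventricular markers had higher sums in every 48 hpf library than at 72 hpf. The ventricular marker hey2 ran otherwise, with 41, 26 and 74 counts at 72 hpf, against 0, 39 and 0 counts at 48 hpf. By the study's methods the atrium itself showed some mCherry, so myh7 counts cannot be assigned to ventricular CMs alone. The part of leukocytes and other cells in the values below was not tested. A fit without the leukocyte-rich libraries, given below, cannot decide it, because leukocyte sums still differed by stage. They were 7.706 and 9.225 CPM in the remaining 72 hpf libraries, against 380.5 and 350.6 CPM at 48 hpf.

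Whether the pacemaker genes differed between the stages was asked with edgeR's quasi-likelihood test on the counts of all 16100 genes that passed the filter. The channel genes hcn4, hcn2b and cacna1g had 917 to 2383 counts per library, isl1 and shox2 had 64 to 527, and hcn4l had at most 9. Of the 5 genes tested, 0 were called at 72 hpf against 48 hpf, where a call meant an adjusted p (Benjamini-Hochberg) under 0.05 together with a change of more than 1.5-fold. These thresholds were met by 0.00621% of all genes tested, which is 1 gene, higher at 72 hpf, and by 0% in the lower direction. The unadjusted p fell below 0.05 for 0 of the 5 genes, against 8.75% of all genes tested, and DESeq2 and limma-voom also called 0 of the 5, where DESeq2 called 4.14% of all genes. The log2 fold changes lay between -0.82 for isl1 and 0.19 for hcn2b, with a median of -0.14 beside -0.02 for all genes tested, and the adjusted p-values from edgeR lay between 0.712 and 0.977. In bulk samples a lower level cannot be told apart from fewer cells that express the gene. The study states for its experiments in general that independent batches of animals were used, and that cells were gathered over several sorting sessions. Which batches and sessions went into which library is not given in the sources used here, so the p-values measure the spread between these libraries, part of which may be technical.

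**Figure D1:**
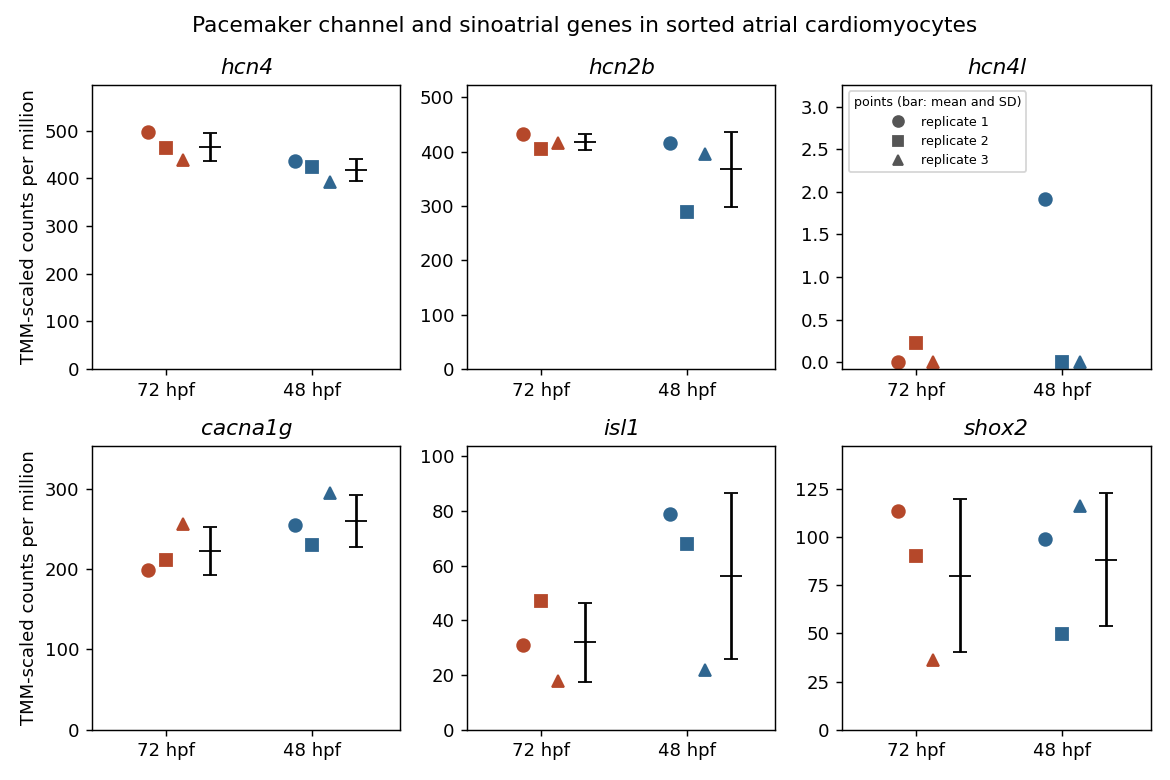
Level of each of the 6 genes in CPM scaled by TMM factors (vertical axes), with 1 point per library, 72 hpf in red on the left and 48 hpf in blue on the right of each panel; black bars give the mean and SD of 3 libraries and are left out for hcn4l. hcn4 stays between 392 and 497 CPM in all 6 libraries, while isl1 and shox2 spread more than 2-fold within each stage and hcn4l stays below 2 CPM.

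The gene hcn4, which encodes the main pacemaker channel of the mammalian node, lies on chromosome 18 of danRer11 from 1004814 to 1143998 on the minus strand (ENSDARG00000061685). It had 2300, 2080 and 1567 counts in replicates 1, 2 and 3 at 72 hpf, against 2047, 2383 and 1430 counts at 48 hpf. After TMM scaling these were 497, 465 and 438 CPM at 72 hpf and 436, 425 and 392 CPM at 48 hpf. Every 72 hpf library therefore lay above every 48 hpf library, by a margin of only 438 against 436 CPM between the nearest pair. The log2 fold change was 0.16 with a standard error (SE) of 0.11 (95% interval -0.09 to 0.41, adjusted p = 0.712 from edgeR). The exact two-sided permutation test of 3 libraries against 3 gave p = 0.1, the smallest it allows. Among all genes tested 7.24% had non-overlapping stages with 72 hpf higher, 9.32% with 72 hpf lower and 16.6% in either direction, so 1 of 5 is close to what the table holds anyway. The interval stays inside a 1.5-fold change in either direction.

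The gene hcn2b, which encodes a second channel of the family, lies on chromosome 22 from 18951096 to 19007968 on the plus strand (ENSDARG00000061665). It had 2005, 1812 and 1486 counts at 72 hpf, against 1954, 1621 and 1447 counts at 48 hpf. Its scaled levels were 433, 405 and 416 CPM at 72 hpf and 416, 289 and 396 CPM at 48 hpf. The 72 hpf libraries were close together, and replicate 2 at 48 hpf stood below the other 5. The log2 fold change was 0.19 with an SE of 0.15 (95% interval -0.17 to 0.55, adjusted p = 0.793 from edgeR), and it was 0.04 without replicate 2 at 48 hpf.

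The paralog hcn4l lies on chromosome 25 from 29211792 to 29316193 on the minus strand (ENSDARG00000074419). It had 0, 1 and 0 counts at 72 hpf, against 9, 0 and 0 counts at 48 hpf. Only replicate 1 at 48 hpf was above the floor of 3 counts, at 1.91 CPM, and the gene was not tested. Its end overlaps nptna on the same strand, which had 63 to 172 counts at 72 hpf and 54 to 154 counts at 48 hpf. Reads on both genes were left out of the counting, as were reads that map to several places, so hcn4l reads in shared sequence would be missing. The other 5 genes overlap no other gene of the table.

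Of the other Hcn genes analysed here, hcn3 had 0 counts in all 6 libraries. The gene hcn5 had 0, 31 and 0 counts at 72 hpf, against 2, 0 and 62 counts at 48 hpf, each time nearly all in a single library. These were replicate 2 at 72 hpf and replicate 3 at 48 hpf, which also had the highest erythrocyte and leukocyte marker sums of their stage. Erythrocyte sums were 127 and 556 CPM there. The part of blood cells in the hcn5 counts was not tested. The stages overlapped, and hcn5 was not called (adjusted p = 0.950 from edgeR).

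The share of hcn4 in the summed counts of hcn4 and hcn2b is the same before and after scaling for depth. It can still vary with depth where the counts of 1 gene follow depth less than those of the other. This share was 53.4%, 53.4% and 51.3% at 72 hpf, against 51.2%, 59.5% and 49.7% at 48 hpf. Exact (Clopper-Pearson) 95% intervals overlapped between all 72 hpf libraries, the widest being 49.5% to 53.1% in replicate 3. At 48 hpf the interval of replicate 2, 58.0% to 61.0%, lay above those of replicates 1 and 3, and this library also had the lowest scaled level of hcn2b. It was the deepest library as well, at 5629941 counts, and the part of depth in its share was not tested. The stages overlapped, with every 72 hpf library inside the range of the 48 hpf libraries. These are shares of counts, not of molecules, because the transcripts differ in length and lengths were not used here.

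**Figure D2:**
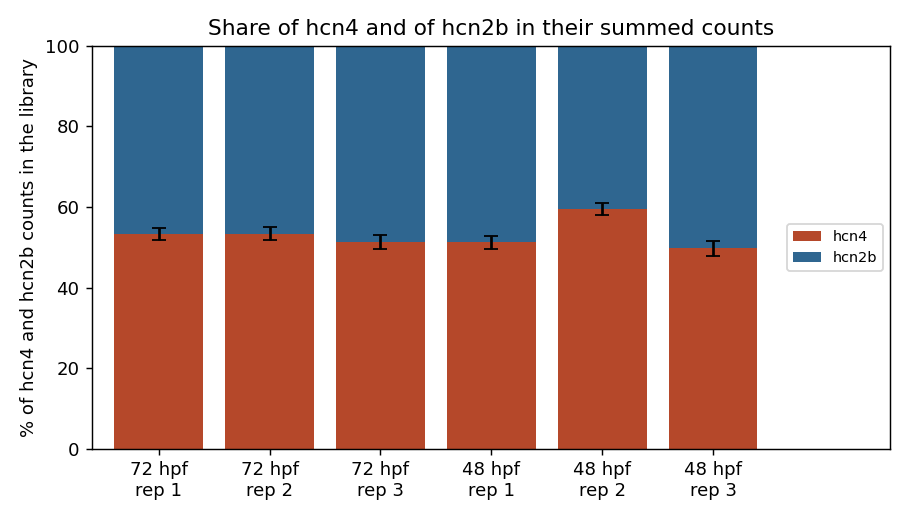
Share of hcn4 and of hcn2b in their summed counts (vertical axis, %), with 1 stacked bar per library, 72 hpf on the left and 48 hpf on the right, and black bars for the exact 95% interval of the hcn4 share. hcn4 makes up 51.3% to 53.4% at 72 hpf and 49.7% to 59.5% at 48 hpf, where replicate 2 stands above the others.

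The T-type calcium channel gene cacna1g lies on chromosome 12 from 27704015 to 28073562 on the plus strand (ENSDARG00000089913). It had 923, 948 and 917 counts at 72 hpf, against 1200, 1291 and 1077 counts at 48 hpf, so that the raw counts of the stages did not overlap. Scaled to the library totals by TMM they did, with 199.4, 211.8 and 256.5 CPM at 72 hpf and 255.5, 230.0 and 295.1 CPM at 48 hpf. Replicate 3 at 72 hpf was above 2 of the 3 libraries at 48 hpf. The log2 fold change was -0.23 with an SE of 0.15 (95% interval -0.59 to 0.13, adjusted p = 0.723 from edgeR). It was -0.33 without replicate 3 at 72 hpf and -0.12 without replicate 3 at 48 hpf.

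The counts of cacna1g did not follow the depth of the libraries as those of hcn4 did. Library totals had a coefficient of variation of 12.8% at 72 hpf and 20.7% at 48 hpf. For hcn4 it was 19.0% in raw counts and 7.31% in CPM at 72 hpf, and 24.7% in raw counts and 5.88% in CPM at 48 hpf. Scaling by depth thus brought the hcn4 libraries together. For hcn2b it was 14.8% in raw counts and 4.38% in CPM at 72 hpf, but 15.4% in raw counts and 18.4% in CPM at 48 hpf. For cacna1g it was 1.77% in raw counts and 12.7% in CPM at 72 hpf, and 9.03% in raw counts and 12.1% in CPM at 48 hpf. The contractile gene myl7 had 3.05% in raw counts and 10.6% in CPM at 72 hpf, and 3.03% in raw counts and 19.5% in CPM at 48 hpf. Libraries of cacna1g and myl7 were thus closer in raw counts than after scaling by depth, as were those of hcn2b at 48 hpf. The authors removed duplicate reads, and its part in this was not tested.

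Among the other calcium channel genes the largest counts were those of the L-type pore gene cacna1c and of cacna2d1a, which encodes an accessory subunit. The level of cacna1c was 97.7 ± 21.7 CPM at 72 hpf and 80.4 ± 23.5 CPM at 48 hpf (SD, n = 3 each). The level of cacna2d1a was 77.2 ± 33.7 CPM at 72 hpf and 55.6 ± 17.6 CPM at 48 hpf (SD, n = 3 each). The T-type gene cacna1ia had 0 counts in all 6 libraries. A further T-type gene, cacna1ha, is named after its values were seen: it had 61, 99 and 50 counts at 72 hpf, against 41, 17 and 1 counts at 48 hpf. All its 72 hpf libraries were higher, with a log2 fold change of 2.02 that did not pass the test (SE 1.21, adjusted p = 0.665 from edgeR). Among all genes tested 7.24% had every 72 hpf library higher. The Cav1.3 gene cacna1da, whose ortholog carries part of the pacemaker calcium current in mice, had counts in replicate 3 at 48 hpf alone (47). That library had the highest erythrocyte and leukocyte marker sums, and their part in these counts was not tested. Of the 6 genes of this list tested, 0 were called by edgeR, 0 had an unadjusted p under 0.05, and the estimates were above 0 for 5, with a median of 0.38 on the log2 scale.

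The LIM-homeodomain gene isl1 lies on chromosome 5 from 40728613 to 40734045 on the minus strand (ENSDARG00000004023). It had 144, 210 and 64 counts at 72 hpf, against 371, 382 and 80 counts at 48 hpf. In scaled units these were 31.1, 46.9 and 17.9 CPM at 72 hpf and 79.0, 68.1 and 21.9 CPM at 48 hpf. Replicates 1 and 2 were higher at 48 hpf than any library at 72 hpf, whereas replicate 3 was the lowest of its stage at both times and made the stages overlap. The log2 fold change was -0.82 with an SE of 0.56 (95% interval -2.13 to 0.50, adjusted p = 0.725 from edgeR). It was the largest estimate of the 5 genes and also the least certain.

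The sorter changed together with the replicate number, so sorter and replicate cannot be told apart. With replicates 1 and 2 only, which combined both sorters, the log2 fold change was -0.92 with an SE of 0.33 and an adjusted p of 0.639 from edgeR. Replicate 3, from the BigFoot alone, holds 1 library per stage and gave 17.9 CPM at 72 hpf and 21.9 CPM at 48 hpf with no test. With the sorter as a covariate the estimate was -0.71, at an adjusted p of 0.568 from edgeR. Leaving out replicate 3 at 48 hpf or replicate 2 at 72 hpf made it -1.20, and leaving out replicate 1 at 48 hpf or replicate 3 at 72 hpf brought it to -0.49 and -0.53. A fit added after the data were seen left out replicate 2 at 72 hpf and replicate 3 at 48 hpf. These libraries had the most leukocyte marker counts of their stage. They also had the highest sums of the 8 erythrocyte markers, 127 CPM at 72 hpf and 556 CPM at 48 hpf. The remaining libraries had 3.08 and 4.47 CPM at 72 hpf and 7.83 and 14.4 CPM at 48 hpf. The fit thus did not remove leukocytes alone, and the part of erythrocyte RNA in it was not tested. The isl1 estimate was then -1.58 (adjusted p = 0.427 from edgeR). The libraries left out also had the highest isl1 at 72 hpf and the lowest at 48 hpf, so leaving them out steepens the estimate by itself. The direction was lower at 72 hpf in all 6 fits without a single library, and the adjusted p was between 0.563 and 0.935 in edgeR.

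Neurons also express isl1, and markers of neurons were read beside it. The 10 neuronal markers summed to 145, 119 and 61.8 CPM in replicates 1, 2 and 3 at 72 hpf, against 155, 163 and 77.1 CPM at 48 hpf. As for isl1, replicate 3 was the lowest library of each stage. The 10 endothelial markers were also lowest there, with 86.9 CPM at 72 hpf and 133 CPM at 48 hpf. Replicate 3 had the smallest library total of each stage as well. It also had the fewest genes detected, 15182 at 72 hpf and 15859 at 48 hpf. At 72 hpf most of the neuronal sum came from elavl4, which had 473, 405 and 150 counts at 72 hpf, against 407, 385 and 137 counts at 48 hpf. The pan-neuronal marker elavl3 had 0, 0 and 0 counts at 72 hpf, against 135, 376 and 51 counts at 48 hpf, and stmn2b and gap43 were also at 0 in all 72 hpf libraries. The autonomic and cranial neuron marker phox2bb had at most 1 count in any library. Of the 10 neuronal markers, 4 were at or below the floor in all libraries at 72 hpf and 2 at 48 hpf. The part of neuronal RNA in the isl1 counts was not tested.

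The homeodomain gene shox2 lies on chromosome 15 from 2182103 to 2188422 on the minus strand (ENSDARG00000075713). It had 527, 404 and 129 counts at 72 hpf, against 466, 278 and 424 counts at 48 hpf. In scaled units these were 114, 90.3 and 36.1 CPM at 72 hpf and 99.2, 49.5 and 116 CPM at 48 hpf. The stages overlapped widely, with replicate 3 at 72 hpf the lowest and replicate 2 at 48 hpf next. The log2 fold change was -0.14 with an SE of 0.47 (95% interval -1.24 to 0.96, adjusted p = 0.977 from edgeR). Its sign rested on single libraries, being 0.22 without replicate 3 at 72 hpf, 0.11 without replicate 3 at 48 hpf and 0.45 with replicates 1 and 2 only.

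Mesenchyme also expresses shox2, and its markers, among them 3 collagen genes, were read in all libraries. The 9 mesenchyme markers summed to 303, 1629 and 1895 CPM at 72 hpf, against 922, 900.0 and 424 CPM at 48 hpf. The library with the most shox2 at 72 hpf, replicate 1, had the lowest sum, and replicate 3 at 48 hpf combined the highest shox2 with the lowest sum of its stage. Of these markers prrx1b had 0 counts in all 72 hpf libraries, and prrx1a had 17, 48 and 0 counts at 72 hpf, against 142, 221 and 87 counts at 48 hpf. The receptor gene pdgfra had 570, 918 and 717 counts at 72 hpf, against 1151, 1058 and 567 counts at 48 hpf. The 5 epicardial markers summed to 211, 670 and 435 CPM at 72 hpf and 435, 766 and 310 CPM at 48 hpf. Of the 72 hpf sums tcf21 made only 15.4, 50.8 and 17.6 CPM. The largest part there was aldh1a2, named after its values were seen, with 132, 335 and 291 CPM. Of the 48 hpf sums tbx18 made 211, 310 and 99.9 CPM. This gene is also among the other SAN factors read below, so the list does not mark epicardial cells alone. These markers moved apart between the stages, with log2 fold changes of -1.40 for tcf21 and 1.09 for aldh1a2. Of the 5 estimates 1 was above 0 and 4 were below. At both stages the library with the most shox2 had the lowest sum of both marker lists. Single markers ran otherwise, since prrx1a and twist1a had 0 counts in replicate 3 at 72 hpf, the library with the least shox2. The part of mesenchymal or epicardial RNA in the shox2 counts was not tested.

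**Figure D3:**
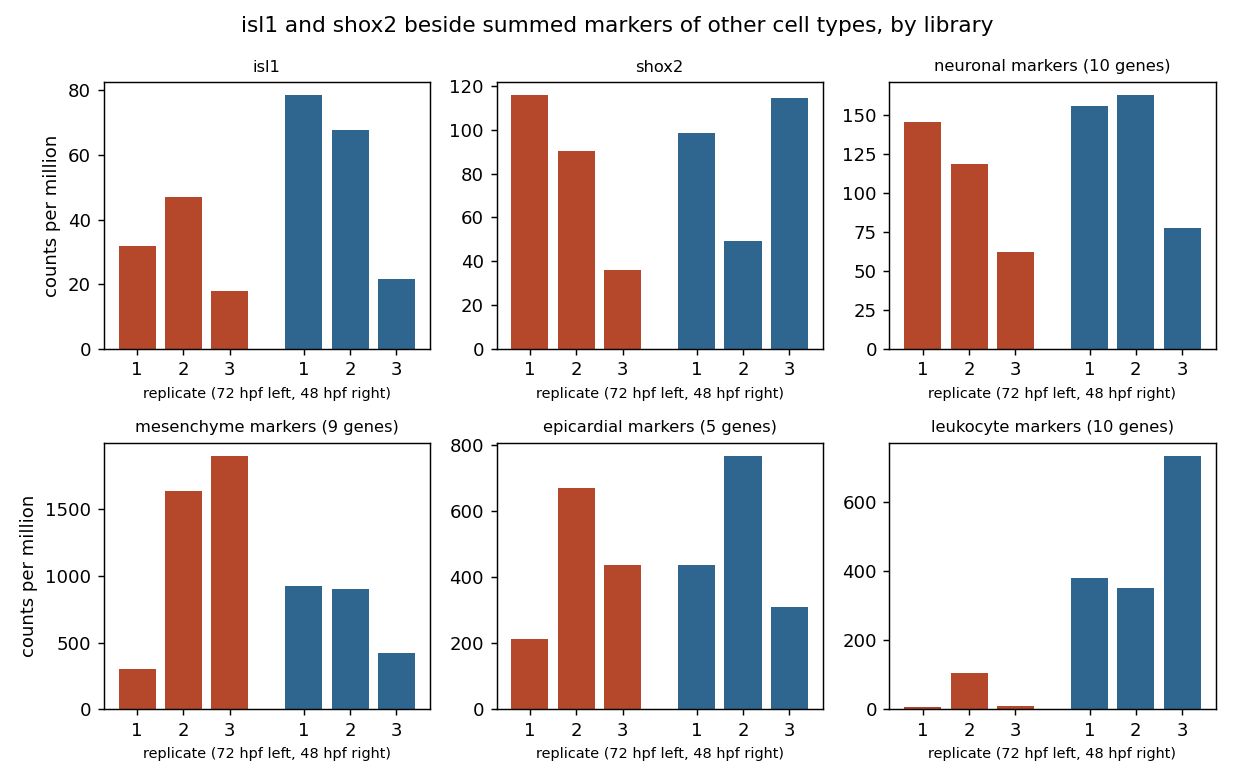
CPM of isl1, of shox2 and of 4 summed marker lists (vertical axes), with 1 bar per library, 72 hpf in red on the left and 48 hpf in blue on the right of each panel. isl1 and the neuronal markers are lowest in replicate 3 of each stage, as are the endothelial markers, which are not drawn. The library with the most shox2 of each stage has the lowest mesenchyme sum, and leukocyte markers are higher in every 48 hpf library.

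The factors did not keep a fixed proportion to each other. Counts of isl1 per count of shox2 were 0.273, 0.520 and 0.496 at 72 hpf, against 0.796, 1.37 and 0.189 at 48 hpf. For the channels, counts of hcn4 per count of hcn2b were 1.15, 1.15 and 1.05 at 72 hpf, against 1.05, 1.47 and 0.988 at 48 hpf. The channel ratio spanned 0.988 to 1.47 over all 6 libraries, while the ratio of the factors spanned 0.189 to 1.37 within 48 hpf alone. Both ratios were formed after the values were seen and were given no test.

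The 5 genes thus fell into 2 kinds by their spread between libraries of a stage. The pooled within-stage SD on the log2 scale was 0.09 for hcn4, 0.19 for cacna1g and 0.21 for hcn2b, against a median of 0.43 over the 11036 genes that averaged at least 50 normalized counts. It was 0.87 for isl1 and 0.77 for shox2. Only 1.49% of those genes had a smaller spread than hcn4, whereas 77.6% had a smaller spread than isl1 and 74.0% a smaller one than shox2. The channels also had more counts than the factors, and a higher count lowers the spread by itself.

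**Figure D4:**
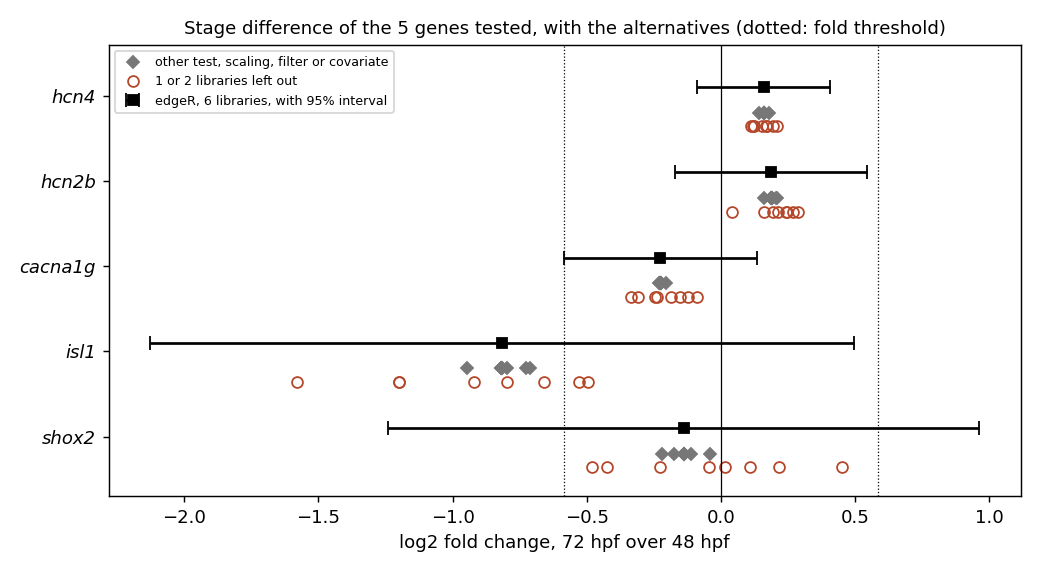
Log2 fold change of 72 hpf over 48 hpf (horizontal axis) for the 5 genes tested: black squares with 95% intervals from edgeR on 6 libraries, grey diamonds for other tests, scalings, filters and covariates, and open circles for fits without 1 or 2 libraries. Every interval includes 0, the estimates for hcn4, hcn2b and cacna1g stay between the dotted fold thresholds, isl1 stays below 0 and shox2 lies on both sides of it.

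Genes whose levels over the 6 libraries were most like those of each gene were listed as a description, from 11035 compared. For hcn4 these were kmo (Pearson r = 0.984) and ubr7 (r = 0.980), and for hcn2b lyrm7 (r = 0.995) and CASKIN2 (r = 0.991). For cacna1g they were TADA1 (r = 0.990) and herpud2 (r = 0.983). For isl1 they were dyrk1ab (r = 0.992) and fzd7b (r = 0.989), and for shox2 zgc:158785 (r = 0.990) and cfap20 (r = 0.985). The 6 libraries differ in depth, sorter and stage at once, so these values describe likeness within the table and nothing further.

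Genes that work beside the pacemaker genes were read from 9 lists, which held 102 genes of the table, 85 of them tested. None of the 85 was called by edgeR or by limma-voom, while DESeq2 called 6 higher and 2 lower at 72 hpf, beside 1.27% and 2.88% of all genes. At an unadjusted p under 0.05 from edgeR 10 genes were higher and 7 lower, or 11.8% and 8.24% of the 85, beside 3.12% and 5.63% of all genes tested. Of those lower, adcy6b, slc8a1b, isl2b, lmo1 and tcf7 had 0 counts in all 72 hpf libraries. They passed the filter through 48 hpf alone, so the lower share rests mainly on genes without counts at 72 hpf. Among those higher, gja5a had 0, 1 and 1 counts at 48 hpf. The lists were chosen with earlier results of these data known, so these shares are a description.

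Genes listed here as partners of Hcn channels passed no test. The list was broad and also held the Popeye genes bves and popdc3. They encode cAMP-binding membrane proteins, and whether these bind Hcn channels was not tested. In mice Bves helps to keep SAN rate under stress. The level of bves was 392 ± 41.2 CPM at 72 hpf and 355 ± 74.9 CPM at 48 hpf, and that of popdc3 was 75.4 ± 6.35 CPM at 72 hpf and 77.0 ± 13.8 CPM at 48 hpf (SD, n = 3 each). Of the 6 genes tested from this list 0 were called, 0 had an unadjusted p under 0.05, and the median log2 fold change was -0.02. The stages did not overlap for 1 of them, lrmp, with 72 hpf lower, beside 9.32% of all genes tested. Named after its values were seen, lrmp had 0, 27 and 0 counts at 72 hpf, against 61, 91 and 110 counts at 48 hpf. Its fitted change was -3.27 on the log2 scale (SE 1.82, adjusted p = 0.627 from edgeR). For pex5la, related to the mammalian Hcn trafficking subunit TRIP8b and named for that role, the fitted change was -0.01 (log2, SE 0.38).

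The other SAN factors and signals held genes with estimates on both sides of 0. The T-box repressor gene tbx2b, which acts in the atrioventricular canal, had 1221, 926 and 698 counts at 72 hpf, against 1679, 1683 and 1485 counts at 48 hpf. The estimated change came to -0.68 in log2 units (SE 0.17, adjusted p = 0.397 from edgeR), and DESeq2 called it lower. The gene tbx5b, a paralog of the cardiac activator tbx5a, had 320, 302 and 192 counts at 72 hpf, against 155, 159 and 111 counts at 48 hpf. The fitted change was 1.05 on the log2 scale (SE 0.28, adjusted p = 0.400 from edgeR), and DESeq2 called it higher. In both genes the stages did not overlap. They made 1 higher and 1 lower among the 13 genes of this list tested, beside 7.24% and 9.32% of all genes tested. The signal gene bmp4, expressed at the inflow and in the canal, had a level of 371 ± 70.1 CPM at 72 hpf and 473 ± 53.8 CPM at 48 hpf (SD, n = 3 each). The factor genes tbx18 and tbx3a are named after their values were seen. Their log2 fold changes were -0.97 for tbx18 (SE 0.56, adjusted p = 0.652 from edgeR) and 0.84 for tbx3a (SE 0.87, adjusted p = 0.856 from edgeR). In both of these the stages overlapped.

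A relative of isl1, isl2b, had 0 counts in all 72 hpf libraries, against 32, 31 and 0 counts at 48 hpf, and isl2a and vsnl1b had 0 counts in all 6. Shox2's relative shox, named after its values were seen, had counts in replicate 3 at 48 hpf alone (56), the library with the highest erythrocyte and leukocyte marker sums. Of the 13 genes of this list tested, edgeR called 0, and the median log2 fold change was -0.09. At an unadjusted p under 0.05, 1 was higher and 2 were lower, beside 3.12% and 5.63% of all genes tested. The 2 lower were tbx2b and isl2b, and isl2b passed the filter through 48 hpf alone. Among 8 LIM partners of Isl1, ldb1a, the adaptor through which LIM-homeodomain factors pair, had a level of 267 ± 39.2 CPM at 72 hpf and 314 ± 23.0 CPM at 48 hpf (SD, n = 3 each). The LIM-only gene lmo4a had 41, 474 and 252 counts at 72 hpf, against 504, 940 and 289 counts at 48 hpf, so that replicate 1 at 72 hpf stood apart. The gene lmo1 had 0 counts in all 72 hpf libraries, against 21, 0 and 41 counts at 48 hpf. The median of these 8 partners was -0.42, with 0 called by edgeR. At an unadjusted p under 0.05, 1 was lower, beside 5.63% of all genes tested. This was lmo1, which passed the filter through 48 hpf alone.

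Genes of the working atrium, which are low in the mammalian node, had a median log2 fold change of 0.13 over 12 tested. The connexin gene gja5a had 51, 79 and 162 counts at 72 hpf, against 0, 1 and 1 counts at 48 hpf. Its paralog gja5b had 551, 547 and 629 counts at 72 hpf, against 296, 260 and 369 counts at 48 hpf, or 0.99 on the log2 scale (SE 0.32, adjusted p = 0.466 from edgeR). The cardiac sodium channel gene scn5lab had 728, 505 and 696 counts at 72 hpf, against 270, 448 and 221 counts at 48 hpf, or 1.23 on the log2 scale (SE 0.25, adjusted p = 0.319 from edgeR). These 3 were higher at an unadjusted p under 0.05 and 0 were lower, beside 3.12% and 5.63% of all genes tested. By edgeR 0 were called, and DESeq2 called the 3 higher, beside 1.27% of all genes. The members with the highest counts, nppa and nr2f1a, had log2 fold changes of 0.07 and 0.10. The transcription factor gene nkx2.5, a target of repression by Shox2 in mammals and named here for that role, had one of 0.14 (SE 0.18). As for myl7, libraries of nppa were closer in raw counts than in CPM. Its coefficient of variation was 2.86% in raw counts and 11.2% in CPM at 72 hpf. At 48 hpf it was 3.2% in raw counts and 19.5% in CPM.

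The input that sets pacemaker rate was read from receptors, G proteins, cyclases, phosphodiesterases and the acetylcholine-gated potassium channels. The potassium channel gene kcnj5 had 1246, 979 and 806 counts at 72 hpf, against 204, 417 and 198 counts at 48 hpf, or 2.05 on the log2 scale (SE 0.23, adjusted p = 0.141 from edgeR, called higher by DESeq2). The muscarinic receptor gene chrm2a had 771, 839 and 557 counts at 72 hpf, against 530, 538 and 528 counts at 48 hpf. The fitted log2 changes were 0.82 (SE 0.29) for the G protein gene gnai2b and 0.43 (SE 0.14) for the cAMP-degrading enzyme gene pde3b. Of the 21 genes tested in this list the stages did not overlap for 4 with 72 hpf higher, which are these, and for 2 with 72 hpf lower, adrb3a and gnai1, beside 7.24% and 9.32% of all genes tested. The cyclase gene adcy6b, named after its values were seen, had 0 counts in all 72 hpf libraries, against 46, 25 and 0 counts at 48 hpf. So named too, kcnj3a had at most 1 count, and kcnj3b had 24, 87 and 24 counts at 72 hpf, against 230, 1 and 1 at 48 hpf. The log2 change of pde3a, a paralog of pde3b, was -1.17 (SE 0.55, adjusted p = 0.583 from edgeR). Over the list 12 estimates were above 0 and 9 below. Over the list edgeR called 0, with a median of 0.08. At an unadjusted p under 0.05, 4 were higher and 1 was lower, beside 3.12% and 5.63% of all genes tested. The lower one was adcy6b, which passed the filter through 48 hpf alone. The ones with the highest counts, gnai2a and pde4ba, had log2 fold changes of 0.08 and 0.09.

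Of the calcium clock, which releases store calcium late in diastole, the release channel gene ryr2b had 4822, 4949 and 3972 counts at 72 hpf, against 3541, 4037 and 3385 counts at 48 hpf. The estimated change came to 0.44 in log2 units (SE 0.12, adjusted p = 0.409 from edgeR). The junctional gene jph2 had a log2 change of 0.74 (SE 0.20, adjusted p = 0.411 from edgeR) and was called higher by DESeq2. The calcium pump gene atp2a2a, with the highest counts of the list, had one of 0.17. The exchanger gene slc8a1b had 0 counts in all 72 hpf libraries, against 33, 0 and 47 counts at 48 hpf. Over 12 genes tested edgeR called 0, with a median of 0.18. At an unadjusted p under 0.05, 2 were higher and 1 was lower, beside 3.12% and 5.63% of all genes tested. The lower one was slc8a1b, which passed the filter through 48 hpf alone.

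**Figure D5:**
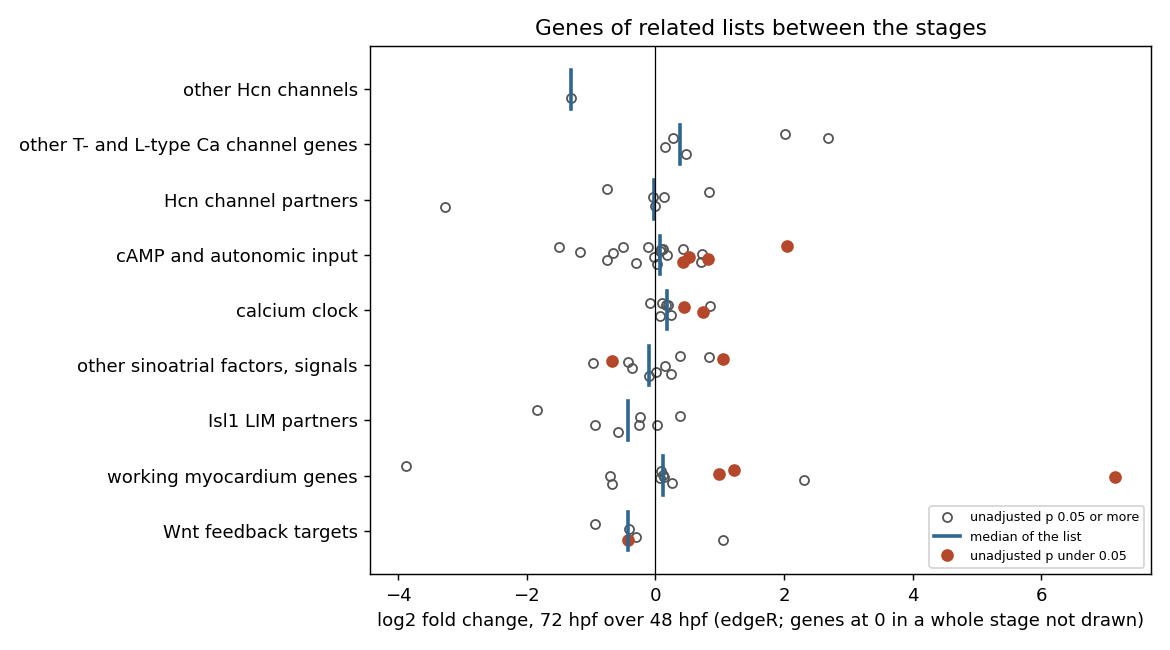
Log2 fold change of 72 hpf over 48 hpf (horizontal axis, edgeR) for the tested genes of 9 lists, with filled points for an unadjusted p under 0.05 and blue bars for the median of each list. Genes at 0 counts in a whole stage are not drawn but enter the medians at the floor of 3 counts; gja5a at the far right had 0, 1 and 1 counts at 48 hpf, and the medians lie between -1.31, from hcn5 alone, and 0.38.

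Some targets of the Wnt/β-catenin pathway, whose reporter was used to sort out canal and SAN cells, were still read in the sorted cells. Others were near 0 counts. The targets sp5a and sp5l had at most 3 and 1 counts in any library. The target notum1a had 9 counts in replicate 1 at 48 hpf and 0 in all other libraries. None of these passed the filter on low counts. The feedback gene axin2 had 756, 580 and 729 counts at 72 hpf, against 1037, 1270 and 794 counts at 48 hpf. The fitted change was -0.42 on the log2 scale (SE 0.18, unadjusted p = 0.0488 and adjusted p = 0.565 from edgeR). The feedback gene nkd1 had 254, 86 and 239 counts at 72 hpf, against 290, 442 and 172 counts at 48 hpf. The transcription factor gene tcf7 had 0 counts in all 72 hpf libraries, against 13, 29 and 15 counts at 48 hpf, and DESeq2 called it lower. Only znrf3, named after its values were seen, had an estimate above 0, at 1.06 (log2, SE 0.49, adjusted p = 0.570 from edgeR). Its stages did not overlap, with 191, 131 and 110 counts at 72 hpf, against 51, 86 and 82 counts at 48 hpf. In this list 1 gene had non-overlapping stages with 72 hpf higher and 2 with 72 hpf lower, beside 7.24% and 9.32% of all genes tested. Of the 6 targets tested edgeR called 0, with 0 higher and 2 lower at an unadjusted p under 0.05 and a median log2 fold change of -0.42. The 2 lower were axin2 and tcf7, and tcf7 passed the filter through 48 hpf alone. Whether the cells with these transcripts are the cells with isl1 or shox2 cannot be told from bulk libraries.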

How the data were processed

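RNA of sorted atrial CMs was sequenced with single-end reads after SMART-Seq amplification. The deposited values are raw gene counts in 1 table, made by the authors with Trimmomatic 0.39, STAR 2.7.10a on danRer11, Picard 3.0.0 to remove duplicates and featureCounts 2.0.4 on exons, without multi-mapping reads or reads on several genes. The sources used here do not give the strand setting. Counts were tested with edgeR 4.0.16 in R 4.3.3 (TMM, quasi-likelihood, robust), for genes with a mean normalized count above 5, and calls used an adjusted p of 0.05 and a fold change of 1.5. An SE is the size of the log2 change over the root of its F statistic. CPM were divided by TMM factors where called scaled and in means ± SD. DESeq2 1.42.0 and limma 3.58.1 were alternatives, within 17 in all, 1 of them added after the data were seen. There were 0 columns of values from other samples.

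The 6 genes and all gene lists were chosen with earlier results of these data known. From each list were named the genes with an unadjusted p under 0.05 (at most 4) and the 2 with the highest mean count, together with chosen cell type markers. Lists were matched by symbol, leaving out symbols shared by several genes. The fits were tested on simulated data, where edgeR and limma made few false calls but missed most 2-fold changes. DESeq2 recovered more changes with many more false calls. At a log2 change of 2, edgeR recovered 58 of 100 genes, limma 43 and DESeq2 79. The simulated counts were drawn with dispersions that edgeR had estimated, so they cannot decide between the methods on the real counts. Reference sequences were not used here. Some items are not reported here.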

Additional observations from a re-analysis of the deposited data

How the results depend on the processing

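The number of the 6 pacemaker genes called stayed at 0 under all 17 alternatives. At an unadjusted threshold of 0.05 the number was 0 and became 1, isl1, in the first pair of replicates and without the library of each stage with most leukocyte marker counts, an alternative added after the data were seen (log2 fold change -1.58), and 0 to 1 over the 6 fits without a single library, where 1 was found without replicate 3 at 48 hpf. The log2 fold changes of hcn4 (0.11 to 0.21), hcn2b (0.04 to 0.29), cacna1g (-0.33 to -0.09) and isl1 (-1.58 to -0.49) kept their direction in all 16 alternatives that changed the fit. That of shox2 kept it in 12 and reversed in 4, at 0.45 with replicates 1 and 2 only, 0.22 and 0.11 without replicate 3 at 72 hpf or at 48 hpf, and 0.015 without the leukocyte-rich libraries, with a range of -0.48 to 0.22 over the fits without a single library. Of all genes tested 1 was called, against 667 with DESeq2, 11 with no filter (1 of them in the list of cAMP and autonomic input) and 0 with limma-voom, the sorter covariate, replicates 1 and 2 only and without the leukocyte-rich libraries, and 0 to 1 over the 6 fits without a single library. The replicate number as a block gave 0 calls over all genes. Same-numbered libraries share the sorters used, but their deviations from the stage means did not all correlate (r = -0.03, 0.12 and -0.03 across 11036 genes, which are not independent), so the numbers were not taken as pairs. With 3577234 to 5629941 counts per library, hcn4l could not be compared.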
